A study of Homo sapiens with 3 samples.

Results

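The adenosine pathway was followed through 10 genes, which were taken by name from the deposited gene tables: NT5E, ENTPD1, ENTPD2, ENTPD3, ADORA1, ADORA2A, ADORA2B, ADORA3, ADA and ADK. Each of the 10 had 1 row among the 39320 gene rows that lay on references with plain chromosome names such as chr6 and occurred in all 3 tables. The tables came from RNA-seq of polyA RNA in 3 libraries labelled as replicates 1 to 3 of HepG2, a human cell line established from liver cancer, with a wild-type (WT) genotype, in a study of METTL3 splice variants in hepatocellular carcinoma. All 3 libraries form 1 condition, so the levels of the 10 genes could be set beside each other but not between conditions. The labels do not say whether the replicates were separate cultures, so the spread between them may be technical.

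Cells release ATP, and ectonucleotidases on the cell surface break it down step by step to adenosine. ENTPD1 (CD39), ENTPD2 and ENTPD3 remove phosphates from ATP and ADP, and NT5E (CD73), an enzyme held to the outer membrane by a lipid anchor, splits the resulting AMP into adenosine and phosphate. Adenosine then acts on G protein-coupled receptors: ADORA1 and ADORA3 couple to Gi and lower cyclic AMP, whereas ADORA2A and ADORA2B couple to Gs and raise it. Adenosine that enters the cell is phosphorylated to AMP by the kinase ADK or deaminated to inosine by ADA. In the liver, extracellular adenosine is known for its actions on blood flow, inflammation and fibrosis, and CD73 is widely studied in tumors as a source of adenosine that restrains immune cells.

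NT5E lay on the plus strand of chromosome 6, and its deposited row (chr6:85449584-85495791, GRCh38) had the same first and last base as the gene in GENCODE v44. GENCODE v44 holds 5 transcripts of NT5E. The longest coding region, of 1722 nt, belongs to a transcript of 9 exons, and a second transcript of 8 exons skips exon 7 and has a coding region of 1572 nt. Exon 7 (chr6:85490508-85490657) is 150 bp long and lies within the coding region, so that its loss removes 50 codons and keeps the reading frame. The transcripts also differ outside the coding region. The one without exon 7 begins 499 bp further upstream and is 3918 nt long, beside 3562 nt for the one with it. The sequences below show only the difference at exon 7. In the first, capitals mark exon 7 and lower case the last 15 bases of exon 6 and the first 15 of exon 8. In the second, capitals mark the first 15 bases of exon 8 where it joins exon 6.
NT5E with exon 7: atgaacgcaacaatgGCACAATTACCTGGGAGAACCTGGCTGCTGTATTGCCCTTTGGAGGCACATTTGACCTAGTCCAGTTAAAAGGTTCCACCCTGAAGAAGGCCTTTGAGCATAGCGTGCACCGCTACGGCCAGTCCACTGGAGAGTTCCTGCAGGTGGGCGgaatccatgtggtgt
NT5E without exon 7: atgaacgcaacaatgGAATCCATGTGGTGT
The tables hold 1 value per gene, so the levels of NT5E below cover its transcripts together. The proportion with exon 7 was not measured here.

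The label of the libraries was checked against marker genes, in lists chosen with earlier results of these data known. Levels are given in TPM, a unit scaled for gene length and to the same total in each library. A list of 16 secreted hepatocyte proteins had 14 genes under 1 TPM in every library. A value of 0 throughout was listed for 10 of these, including ALB, APOA1, APOB and SERPINA1. RBP4, at 10.99 ± 0.508 TPM, and VTN, at 23.3 ± 0.560 TPM (SD, n = 3), were the exceptions, and the summed level of the list was 33.6 to 35.4 TPM. The defining hepatocyte markers were thus at or near 0, AFP among them at no more than 0.0248 TPM. The check did not bear out the liver cell label, and whether the label is right was not tested. For this reason the 3 libraries are described here by their label only. Summed marker levels of other cell types were 0.213 to 0.336 TPM for T, B and NK cells (8 of 8 genes under 1 TPM), 9.49 to 11.3 TPM for myeloid cells (7 of 8, with CD68 above), 1.73 to 2.00 TPM for endothelial cells (7 of 8, with VWF above) and 10.7 to 11.4 TPM for fibroblasts and stellate cells (5 of 8, with COL1A1 at 6.93 ± 0.564, PDGFRB at 2.25 ± 0.190 and RGS5 at 1.79 ± 0.207 TPM above). PTPRC and CD3E of the lymphocyte list, LYZ and TYROBP of the myeloid list, KDR of the endothelial list and PDGFRA of the fibroblast list were listed at 0 in all libraries. Of 6 cholangiocyte markers, 4 were under 1 TPM, while KRT7 reached 544 ± 5.71 TPM. All 12 housekeeping genes were at 10 TPM or more in every library.

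Of the 10 adenosine pathway genes, 5 were at 1 TPM or more in all 3 libraries: the kinase ADK, the deaminase ADA, the receptor ADORA2B, the AMP-hydrolysing enzyme NT5E and the ATP-hydrolysing enzyme ENTPD1. The same level was reached by 33.8% of all gene rows and by 59.5% of the rows that RefSeq lists as protein-coding, so the share of the pathway genes, 5 of 10, was near that of protein-coding genes. ADK, ADA and ADORA2B were at 10 TPM or more in all libraries. ENTPD2, ENTPD3, ADORA1 and ADORA3 were under 1 TPM in all libraries, and ADORA2A was on both sides of this limit. ADORA3 alone was listed at 0 in all libraries, beside 40.7% of all rows and 20% of protein-coding rows. The limit of 1 TPM is a convention, because the tables give no counts and the number of reads behind a value is unknown. In cultures measured in bulk, a low level in every cell and RNA in few of the cells cannot be told apart.

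**Figure D1:**
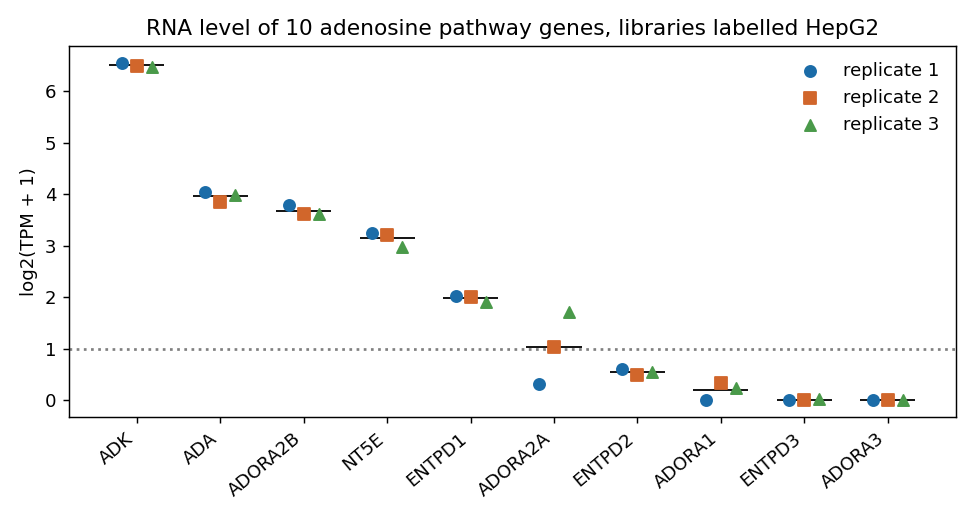
RNA level of the 10 adenosine pathway genes in the libraries labelled HepG2, as log2(TPM + 1), with 1 point per replicate, a bar at the mean of the 3 points and a dotted line at 1 TPM. ADK stands highest at 90.2 TPM, ADA, ADORA2B, NT5E and ENTPD1 follow, and the points of ADORA2A are the most widely spread.

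Among ENTPD1, ENTPD2 and ENTPD3, ENTPD1 was the only one at 1 TPM or more in every library. ENTPD1 (chr10:95710901-95877266, plus strand) had 3.04, 3.02 and 2.72 TPM in replicates 1, 2 and 3, a mean of 2.93 ± 0.178 (SD, n = 3). ENTPD2 (chr9:137048098-137054061, minus strand), which releases ADP from ATP with little further breakdown, had 0.526, 0.399 and 0.460 TPM, a mean of 0.462 ± 0.0635. By TPM every library was thus higher in ENTPD1 than in ENTPD2, with no overlap. By coverage, the mean read depth over the gene, ENTPD2 was the higher in every library. It had 3.28, 2.44 and 2.52, beside 2.49, 2.38 and 1.95 for ENTPD1, so these ranges overlapped. ENTPD3 (chr3:40387156-40428626, plus strand) was listed at 0 in replicates 1 and 2 and at 0.0167 TPM in replicate 3. ENTPD1 made up 85.3%, 88.3% and 85.1% of the summed TPM of the 3 genes. The antisense rows ENTPD1-AS1, at 0.660 ± 0.0576 TPM, and ENTPD3-AS1, at 0.674, 0.431 and 0.745 TPM, overlap ENTPD1 and ENTPD3, and reads of a gene and its antisense partner cannot be told apart where counting ignores strand, a setting that is not given in the sources used here.

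NT5E, the enzyme that forms adenosine from AMP, had 8.44, 8.30 and 6.86 TPM in replicates 1, 2 and 3, a mean of 7.87 ± 0.871 (SD, n = 3). Replicate 3 was the lowest, at 81.3% of replicate 1 and 82.7% of replicate 2. ADK, ADA, ADORA2B and ENTPD1 were also lower in replicate 3 than in replicate 1, at 86.7% to 95.2% of it. The coefficient of variation (CV, the SD as a percent of the mean) of NT5E was 11.1%, above that of 80.9% of the 13753 rows whose mean reached 1 TPM. Their median CV was 6.12%. In FPKM, which is scaled for gene length and library size, NT5E had 3.99, 3.97 and 3.29, and in coverage, the mean read depth over the gene, 46.8, 44.8 and 33.8. By mean TPM, NT5E lay above 33.6% of the rows whose mean reached 1 TPM. No other gene row overlaps NT5E.

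The rows with the most similar values to NT5E over the 3 libraries, measured by Euclidean distance on log2(TPM + 1), were ARHGAP31 at a distance of 0.0279, ETFRF1, a mitochondrial regulator of electron transfer flavoprotein, at 0.0348, and ZNF783, a zinc finger gene, at 0.0562. ARHGAP31 had 8.26, 8.27 and 6.84 TPM, with the same low replicate 3 as NT5E. The likeness is over 3 libraries of 1 condition and so rests mostly on the mean level.

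Among the 4 adenosine receptors, ADORA2B, the low-affinity Gs-coupled receptor, had the highest TPM in every library. ADORA2B (chr17:15927782-15975896, plus strand) had 12.9, 11.3 and 11.2 TPM in replicates 1, 2 and 3, a mean of 11.8 ± 0.964 (SD, n = 3). ADORA1 (chr1:203127705-203167405, plus strand), a Gi-coupled receptor, was listed at 0 in replicate 1 and had 0.248 and 0.180 TPM in replicates 2 and 3. ADORA3 (chr1:111499429-111504121, minus strand), the other Gi-coupled receptor, was listed at 0 in all libraries, as was TMIGD3, which overlaps it and shares 629 of its 2560 exonic bp. ADORA2B made up 98.1%, 89.7% and 81.9% of the summed TPM of the receptors in replicates 1, 2 and 3, and the remainder was mostly ADORA2A. By coverage ADORA2B was at 4.73, 4.20 and 3.73 and ADORA2A at 0.455, 2.05 and 4.03, so ADORA2A was the higher in replicate 3 and their ranges overlapped.

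ADORA2A, the high-affinity Gs-coupled receptor (chr22:24423597-24442360, plus strand), had 0.247, 1.05 and 2.29 TPM in replicates 1, 2 and 3, a mean of 1.20 ± 1.03 (SD, n = 3). The highest of these values was 9.27 times the lowest. Of the 6 pathway genes whose mean reached 1 TPM, ADORA2A alone had a range over 1 on the log2(TPM + 1) scale, at 1.40. Among the 13753 rows whose mean reached 1 TPM, 1.26% had a range over 1. Its CV of 86.2% was above that of 99.3% of these rows. The range was 0.69 without replicate 1 and 0.71 without replicate 3, and so no longer over 1. Without replicate 3 the mean of ADORA2A was 0.647 TPM, under the limit of 1 TPM.

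The row of ADORA2A lies inside that of SPECC1L-ADORA2A, a read-through gene on the same strand (chr22:24270817-24442360) that joins exons of SPECC1L, a cytoskeletal protein gene upstream, to exons of ADORA2A. In GENCODE v44, SPECC1L-ADORA2A has 20 exons, of which the last 2 (chr22:24433131-24433736 and chr22:24440583-24442356) are also the last 2 of a 3-exon transcript of ADORA2A. These shared exons span 2380 bp, hold 98.7% of that ADORA2A transcript and all 1236 nt of its coding region, and make up 38.4% of the read-through transcript. The sequence below is the junction of the 2 shared exons, with 30 bases of the first in lower case and 30 of the second in capitals. It is shown because both genes contain it unchanged, so a read on it fits either.
ADORA2A and SPECC1L-ADORA2A: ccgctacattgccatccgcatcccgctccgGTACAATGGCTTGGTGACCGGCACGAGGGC
The division of reads between these rows is therefore uncertain, and the values of ADORA2A carry this limit.

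The order of the libraries was opposite in these rows. SPECC1L-ADORA2A had 3.18, 1.01 and 0.0474 TPM in replicates 1, 2 and 3, so it was highest where ADORA2A was lowest and lowest where ADORA2A was highest. Summed, the 2 rows had 3.42, 2.06 and 2.34 TPM, a mean of 2.61 ± 0.720 (SD, n = 3), of which ADORA2A took 7.23%, 50.8% and 98.0%. The highest value was 67.1 times the lowest for the read-through and 1.66 times for the sum. The range of the sum was 0.53 on the log2(TPM + 1) scale. SPECC1L itself, whose row ends before that of ADORA2A begins, was nearly level at 15.9, 16.6 and 16.3 TPM, and the antisense row ADORA2A-AS1 had 0.935, 1.25 and 1.34 TPM. By coverage the sum was less even, at 20.4, 8.26 and 4.29. Whether the assignment of shared reads accounts for the spread of ADORA2A was not tested.

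**Figure D2:**
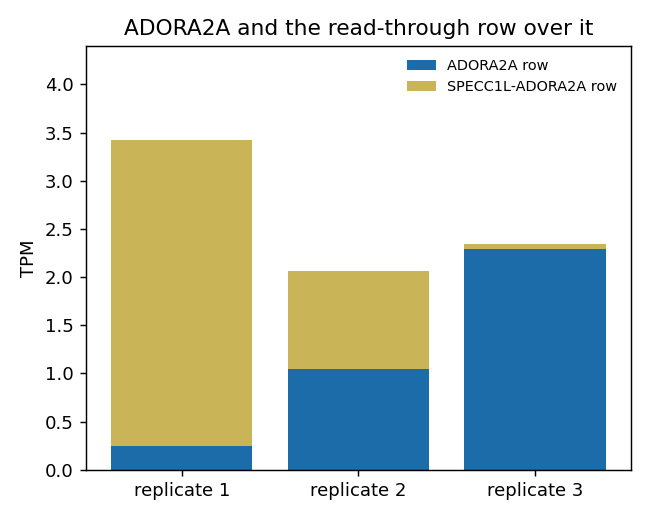
TPM of the ADORA2A row and of the SPECC1L-ADORA2A read-through row, stacked, with 1 bar for each of the 3 replicates. The ADORA2A part is 7.23% of the bar in replicate 1, 50.8% in replicate 2 and 98.0% in replicate 3, whereas the whole bar stays between 2.06 and 3.42 TPM.

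Of the enzymes that clear adenosine, ADK had the higher TPM. ADK (chr10:74151185-74709303, plus strand), whose row spans 558119 bp, had 93.2, 88.9 and 88.6 TPM in replicates 1, 2 and 3, a mean of 90.2 ± 2.59 (SD, n = 3). This was above 87.8% of the rows whose mean reached 1 TPM. Its CV of 2.87% was the lowest of the pathway genes above 1 TPM. ADA (chr20:44619519-44651758, minus strand) had 15.5, 13.4 and 14.8 TPM, a mean of 14.6 ± 1.09. All values of ADK were above all values of ADA, and ADK made up 85.7%, 86.9% and 85.7% of their summed TPM.

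In TPM the order of the mean levels was ADK, ADA, ADORA2B, NT5E, ENTPD1, ADORA2A, ENTPD2, ADORA1, ENTPD3 and ADORA3. Neighbours in this order were compared within each library as the log2 ratio of TPM with 1 added, in 6 pairs in which at least 1 gene reached 1 TPM in a library. The order came from the means of these same libraries, so the direction of each pair was chosen from the tested values. ADK exceeded ADA by 2.55 ± 0.08, ADA exceeded ADORA2B by 0.28 ± 0.08 and ADORA2B exceeded NT5E by 0.53 ± 0.12 on the log2 scale (SD, n = 3). NT5E exceeded ENTPD1 by 1.17 ± 0.08, and ENTPD1 exceeded ADORA2A by 0.95 ± 0.76. These 5 pairs had the same direction in 3 of 3 libraries and ranges that did not overlap, each with p = 0.25 when signs were flipped in an exact permutation test, two-sided (0.3 after Benjamini-Hochberg adjustment over 6 pairs). For ENTPD1 to ADORA2A the mean log2 ratio was 0.57 without replicate 1. By coverage it was 1.26, 0.15 and -0.77 in replicates 1, 2 and 3, a mean of 0.21, so ADORA2A was the higher in replicate 3. With the read-through row added to ADORA2A the mean was 0.14. In replicate 1 this sum, at 3.42 TPM, was above ENTPD1, at 3.04 TPM. The value of 0.25 is the smallest that 3 libraries allow, so no pair could pass 0.05. It is reached whenever the 3 libraries share a direction, whatever their spread. ADORA2A and ENTPD2, the last pair, differed by 0.48 ± 0.73, with the same direction in 2 of 3 libraries, overlapping ranges and p = 0.5 in the same exact test, so their order does not hold beyond the spread.

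NT5E was also set beside the enzymes that remove its product. The TPM of NT5E was 0.542 ± 0.0775 times that of ADA and 0.0871 ± 0.00844 times that of ADK (SD, n = 3). On the log2(TPM + 1) scale NT5E was lower than ADA, at -0.82 ± 0.19, and lower than ADK, at -3.37 ± 0.13, in 3 of 3 libraries. All 3 comparisons among NT5E, ADA and ADK had p = 0.25 in the exact sign-flip permutation test (0.25 after adjustment over 3). NT5E stood 2.68 ± 0.139 times as high as ENTPD1, the enzyme before it in the pathway, in TPM.

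The order of the genes was different by coverage. By coverage, ADA was highest with 93.5, 78.9 and 77.9 in replicates 1, 2 and 3, NT5E followed with 46.8, 44.8 and 33.8, and ADK was only the third with 18.4, 17.0 and 15.3. ADA and NT5E were above ADK in every library, with no overlap. ADORA2B had a mean coverage of 4.22 ± 0.502 and ADORA2A of 2.18 ± 1.79. ENTPD2 had 3.28, 2.44 and 2.52, and ENTPD1 had 2.49, 2.38 and 1.95. ENTPD2 was thus the higher in every library, opposite to the order by TPM, though the ranges overlapped. The log2 ratio of coverage with 1 added was -2.24 ± 0.08 for ADK to ADA, -3.03 ± 0.13 for ADORA2B to NT5E and 1.25 ± 0.14 for NT5E to ADK, each of opposite sign to the ratio of TPM. NT5E to ADA kept its direction, at -0.99 ± 0.19, as did NT5E to ENTPD1, at 3.70 ± 0.12. ADORA2B then made up 91.2%, 54.3% and 42.9% of the summed coverage of the receptors. ENTPD1 made up 43.1%, 49.4% and 43.2% of that of ENTPD1, ENTPD2 and ENTPD3. ADK made up 16.4%, 17.8% and 16.4% of that of ADK and ADA.

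The difference can be followed through the ratio of coverage to FPKM, expressed as a percent of the highest ratio in the same library. ENTPD2 was at 99.6%, 99.5% and 99.6%, ADA at 96.0%, 95.9% and 95.9%, and NT5E at 88.4%, 88.0% and 89.7%. ENTPD1 was at 13.04%, 12.86% and 13.04%, ADORA2B at 5.84%, 6.05% and 6.05%, and ADK at 3.14%, 3.12% and 3.15%. The ratio was thus steady for each gene across libraries and differed widely between genes. Of the 11965 rows above 1 FPKM in all libraries, whose median was 78.9% in replicate 1, 0.794% had a lower ratio than ADK, 2.19% a lower ratio than ADORA2B and 6.69% a lower ratio than ENTPD1, but 60.02% a lower one than NT5E. The bases over which coverage was averaged are not given in the sources used here. The row of ADORA2B begins 17348 bp before the first base of the gene in GENCODE v44. For ENTPD1 and ADK, which also had low ratios, it begins 878 bp and 17 bp before. Whether row length accounts for the ratios was not tested. By both TPM and coverage, ADA was above NT5E and NT5E above ENTPD2 in every library, with no overlap.

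**Figure D3:**
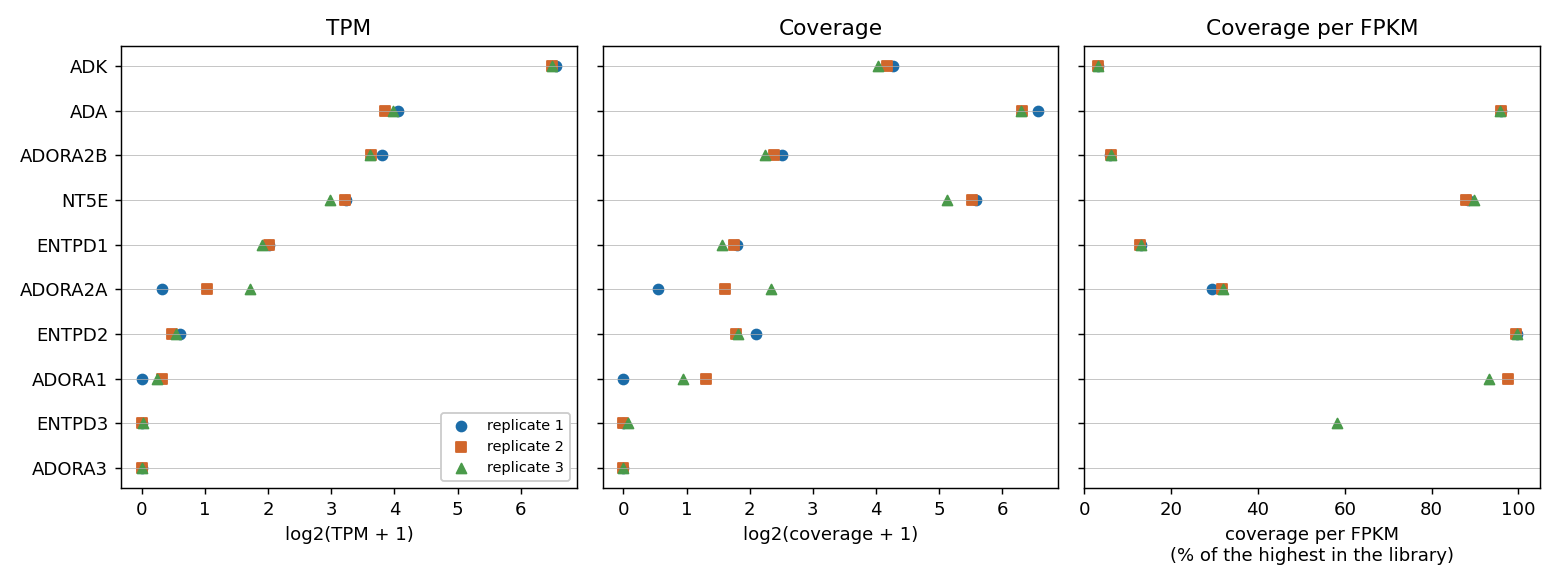
The 10 genes in order of mean TPM, with log2(TPM + 1) on the left, log2(coverage + 1) in the middle and coverage per FPKM as a percent of the highest in the library on the right, and 1 point per replicate (no point on the right where a gene is listed at 0). ADK leads by TPM but falls below ADA and NT5E by coverage, and it has the lowest coverage per FPKM, 3.12% to 3.15%.

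The start regions of the genes were described from RefSeq windows of 300 bases on GRCh38, 250 before to 50 after the annotated start, which matched 9 of the 10 genes (none matched for ADORA2A). The ratio of observed to expected CpG, high in CpG islands, was over 0.6 in 7 of the 9 windows and in 65.7% of 15842 protein-coding windows. It was 1.03 in ADA, 0.962 in ADORA2B, 0.904 in NT5E and 0.897 in ENTPD2, and lowest in ENTPD1, at 0.463, and ADORA3, at 0.179. The letters GGGCGG on either strand, the core of the GC box that Sp1 binds, occurred in 7 of 9 windows and in 58.5% of all, with ENTPD1 and ADORA3 lacking them. TGACGTCA, the cyclic AMP response element, and ACGTG, 1 form of the core of the hypoxia response element, occurred in 0 of 9 windows on either strand. They occurred in 2.59% and 23.7% of all. Other forms of these elements were not searched. ADK, with the highest TPM, and ENTPD2 and ADORA1, both under 1 TPM, all had GGGCGG and a ratio over 0.6. ADK, at 0.608, and ADORA1, at 0.605, were only just over this limit. The median over all protein-coding windows was 0.763.

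The surroundings of the pathway were read from 8 lists with 109 genes, all of which matched a row, 3 of them by an older symbol. Of these, 67 (61.5%) were at 1 TPM or more in all libraries, 40 were under 1 TPM in all, and 2 were on both sides. The share of the lists was thus near the 59.5% of protein-coding rows, with 33.8% over all rows, and the counts of single lists below are to be read against these shares. The median of the mean TPM was 7.57 over the lists, 4.99 over all protein-coding rows and 0.0619 over all rows. None of the 109 genes had a range over 1 on the log2(TPM + 1) scale. The orders of genes within the lists are by TPM unless stated, and they can differ by coverage.

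ATP release precedes the ectonucleotidases, and 5 of 10 genes on its list were at 1 TPM or more in all libraries. The ATP-releasing channel PANX1 had 36.9 ± 1.42 TPM and ANKH, a membrane protein of ATP and pyrophosphate export, 35.4 ± 1.77 TPM (SD, n = 3). The hemichannel genes GJA1, GJB1 and GJB2 were listed at 0 in all libraries.

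Other enzymes can form or consume extracellular AMP and adenosine, and 10 of these 17 genes were at 1 TPM or more in all libraries. The highest by TPM were a pair of alkaline phosphatases, which hydrolyse phosphate esters including AMP: ALPP, the placental form, had 264 ± 0.399 TPM and ALPL, the tissue-nonspecific form, 241 ± 9.74 TPM. By coverage ALPP had 1576 ± 112 and ALPL 77.4 ± 7.87, beside 41.8 ± 6.99 for NT5E, so both stood above NT5E by either measure. ALPP, ALPI and ALPG are closely related copies, and the division of reads among them is uncertain. ENPP1, which makes AMP from ATP, had 12.4 ± 1.42 TPM, above ENTPD1 at 2.93 ± 0.178 TPM. ENTPD8 had 0.492 ± 0.0925 TPM and a coverage of 2.89 ± 0.592. ACP3, a prostatic phosphatase with ecto-5′-nucleotidase activity, had 0.137, 0.0133 and 0 TPM, and CD38, which begins another route to AMP from NAD, was at most 0.00809 TPM.

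Cytosolic and mitochondrial nucleotidases, which split AMP and other nucleotides inside the cell, had 5 of 7 genes at 1 TPM or more in all libraries. NT5C2 had 78.0 ± 6.06 TPM and NT5C 75.6 ± 1.45 TPM, both above the 7.87 ± 0.871 TPM of NT5E with no overlap. Of the nucleoside transporters, 3 of 7 were at that level. The equilibrative transporters SLC29A2, at 42.2 ± 1.54 TPM, and SLC29A1, at 26.6 ± 0.315 TPM, which let adenosine cross the membrane in both directions, were the highest, while the concentrative transporters SLC28A1, SLC28A2 and SLC28A3 were under 0.1 TPM in all libraries.

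Inside the cell, 17 of 21 genes of adenosine and purine handling were at 1 TPM or more in all libraries. GDA, a guanine deaminase, had 280.5 ± 13.7 TPM, and AHCY, which releases adenosine from S-adenosylhomocysteine, the product of methyltransferases, had 266 ± 11.4 TPM. PNP, which breaks down the inosine that ADA forms, had 67.6 ± 4.02 TPM. By coverage GDA, at 126 ± 17.2, was below both AHCY, at 504 ± 55.4, and PNP, at 404 ± 45.1. ADA2, the secreted adenosine deaminase, and DPP4 (CD26), which anchors ADA to the cell surface, were listed at 0 in all libraries.

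Downstream of the receptors, 11 of 17 genes for G proteins and adenylyl cyclases and 12 of 15 genes of the protein kinase A and CREB list were at 1 TPM or more in all libraries. GNAS, which encodes the Gs subunit that ADORA2A and ADORA2B use, had 1101 ± 11.3 TPM, and GNAI2, a Gi subunit, 177 ± 2.06 TPM (SD, n = 3). By coverage GNAS had 209 ± 14.6 and GNAI2 101 ± 8.09, both below GNAI3, another Gi subunit, at 344 ± 42.3. The adenylyl cyclases with the highest levels were ADCY9, at 35.8 ± 3.15 TPM, and ADCY3, at 35.7 ± 1.20 TPM. PRKAR1A, a regulatory subunit of protein kinase A, had 102 ± 3.84 TPM, its catalytic subunit PRKACA 59.0 ± 7.91 TPM, and the transcription factor CREB1 7.71 ± 0.348 TPM.

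**Figure D4:**
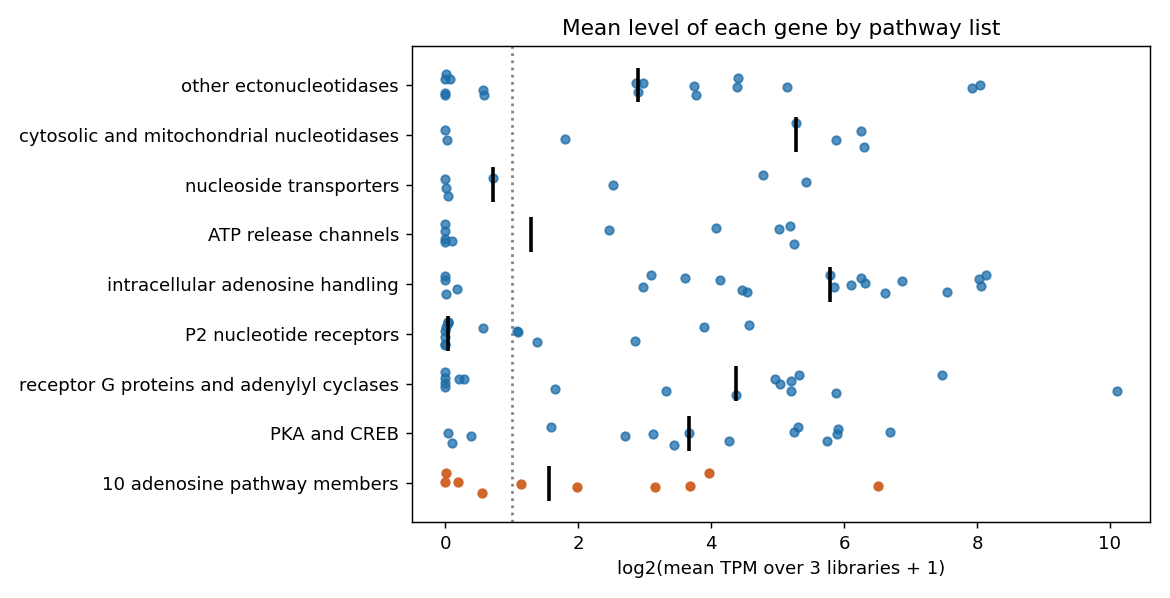
Mean level over the 3 libraries of each gene of 8 pathway lists (blue) and of the 10 adenosine pathway genes (orange), as log2(mean TPM + 1), with a black line at the median of each list and a dotted line at 1 TPM. Intracellular adenosine handling has the highest median, 54.0 TPM, and the P2 nucleotide receptors the lowest, 0.0318 TPM.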

How the data were processed

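RNA was sequenced in 3 libraries labelled wild-type HepG2, and 1 gene table per library was deposited. Per the submitters' processing notes, FastQC 0.11.8, Trim Galore 0.6.2, STAR 2.6.1a and StringTie were used with GRCh38. The annotation and the strand setting are not given in the sources used here. Of the deposited values, the coverage is a mean read depth (a signal with no scaling for library size), the FPKM, computed by the authors, is scaled for gene length and library size, and the TPM, also from the authors, is scaled to the same total per library. No counts were given, so the depth is unknown and precision is the SD over 3 libraries. The highest coverage per FPKM, which rises with depth, exceeded that of replicate 3 by a factor of 1.16 in replicate 1 and of 1.12 in replicate 2.

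Rows were joined by name and coordinates (39320 rows). Ratios used log2(TPM + 1) and two-sided exact sign-flip permutation tests. With 3 libraries of the same direction the p-value of this test is 0.25 at any spread, so it does not measure the spread between libraries. The range calculation was tested on simulated data. Protein-coding rows (18739) were matched to RefSeq by symbol. Transcript structures were taken from GENCODE v44 and bases from GRCh38. The promoter of NT5E was not printed because a longer transcript covers it.

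Named were the 10 genes, overlapping rows, the 3 rows nearest to NT5E, the 2 highest genes of each pathway list and those acting directly on adenosine. Any other gene of the lists could be named too. Members and lists were chosen with earlier results of these data known. As alternatives, each replicate was left out in turn, limits and pseudocounts were changed, FPKM, coverage or protein-coding rows were used, and values were rescaled by median of ratios, after removal of mitochondrially encoded genes, or after recomputing the mitochondrial tRNA row TRNC. The read-through row was added to ADORA2A as a later alternative. Calculations ran in Python 3.11.15 with pandas 2.3.3, numpy 2.4.6, matplotlib 3.10.9 and scipy 1.17.1.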

Additional observations from a re-analysis of the deposited data

How the results depend on the processing

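Of 166 alternative values, 123 stayed within 1 SD (means and percentiles), kept their direction (ratios) or stayed within 1.5 times (counts), 39 moved by more and 4 reversed. Coverage in place of TPM reversed 4 of the 8 mean log2 ratios, ADK to ADA (-2.24), ADORA2B to NT5E (-3.03), ADORA2A to ENTPD2 (-0.40) and NT5E to ADK (1.25). No other setting reversed any mean ratio. The mean of NT5E was 9.86 TPM without mitochondrially encoded genes and 9.47 TPM with TRNC set to the level its coverage gives, since both settings free a share of the fixed total. The count of the 10 genes at the limit in all libraries was 3 with a limit of 10 TPM, 7 with a limit of 0.1 TPM, and 6 without replicate 1 or with the read-through row added. ADORA2A was the only gene with a range over 1, and the count was 2 with a pseudocount of 0.1 and 0 to 1 when 1 replicate was left out (0 without replicate 1 or without replicate 3). NT5E lay above 76.8% of rows with no limit, 51.2% with a limit of 0.1 TPM, 45.1% by coverage and 25.8% of protein-coding rows. Adding the read-through row to ADORA2A, an alternative chosen after the data were seen, raised its mean to 2.61 TPM. The mean log2 ratio of ENTPD1 to ADORA2A was then 0.14, with ADORA2A the higher in replicate 1. No paired analysis was possible because only 1 condition was sequenced. Low values carry no counting error, because depth is unknown.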

Other observations

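ATP and other nucleotides also act directly on P2 receptors before they are broken down to adenosine. Of 15 P2 receptor genes, 4 were at 1 TPM or more in all libraries, 9 were under 1 TPM in all and 2 were on both sides. P2RX5, an ATP-gated channel, had 22.7, 22.7 and 22.6 TPM in replicates 1, 2 and 3, and P2RY6, a receptor for UDP, had 14.7, 13.4 and 13.2 TPM. P2RX4 followed at 6.24 ± 0.297 TPM and P2RX6 at 1.596 ± 0.161 TPM (SD, n = 3). P2RX2 had 0.660, 1.18 and 1.57 TPM and P2RY2 had 1.45, 0.981 and 0.884 TPM, so these were the receptors on both sides of the limit. P2RY1, P2RY13 and P2RY14 were listed at 0 in all libraries, and the ATP-gated channel P2RX7, known from immune cells, was at most 0.0702 TPM.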
